A study of Mus musculus with 18 samples.

Results

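Brain vessels were examined through 10 genes, 9 that mark endothelial cells (Flt1, Kdr, Tek, Tie1, Eng, Pecam1, Vwf, Cldn5 and Abcb1a) and 1 that marks pericytes (Pdgfrb). Every N4-acetylcytidine (ac4C) peak listed under these gene names was collected by exon and by mouse. Of the 10 genes, 4 carried a peak in at least 1 mouse (Flt1, Eng, Pdgfrb and Tie1), and 6 carried none in any mouse (Kdr, Tek, Pecam1, Vwf, Cldn5 and Abcb1a). In all, 7598 genes had a peak in some mouse. Peaks came from acRIP-seq, that is, immunoprecipitation of acetylated RNA fragments with an anti-ac4C antibody followed by sequencing, beside an input library and an IgG control. The tissue was the hippocampus of 6-month-old mice, 3 wild-type (WT) and 3 5×FAD. The 5×FAD line carries mutant human transgenes of familial Alzheimer disease, APPSwFlLon among them, that are expressed from a neuronal promoter, and WT mice carry no transgene. Each mouse gave 3 libraries and 1 deposited peak table, and the sex of these animals was not given in the labels. The labels number the mice 1 to 3 in each genotype and do not say what a shared number stands for.

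Endothelial cells line the vessels of the brain and form the blood-brain barrier, and pericytes wrap the capillaries and share their basement membrane. VEGF signals to endothelium through the receptor kinase Kdr, while Flt1 binds VEGF tightly and acts largely as a decoy, also in a secreted form made from a short transcript that ends within an intron. Tek is the receptor for the angiopoietins and Tie1 its orphan partner, Eng is a co-receptor for BMP and TGF-beta ligands, and Pdgfrb receives the endothelial signal that recruits pericytes. ac4C is formed on cytidine by the acetyltransferase Nat10.

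The exons below are those the results turn on, read in the sense of the mRNA from the RefSeq copy of mouse genome build GRCm38.p6, which is the mm10 build of the tables. The first 4 are internal coding exons with a peak, each a whole region. Capitals mark the longest stretch with CNN repeats, that is, C followed by any pair of bases, the kind of repeat in which ac4C has been described.
Flt1 exon 11, chr5:147655097-147655211, minus strand: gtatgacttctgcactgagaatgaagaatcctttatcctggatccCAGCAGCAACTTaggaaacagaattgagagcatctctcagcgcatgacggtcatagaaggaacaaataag
Flt1 exon 5, chr5:147681845-147682007, minus strand: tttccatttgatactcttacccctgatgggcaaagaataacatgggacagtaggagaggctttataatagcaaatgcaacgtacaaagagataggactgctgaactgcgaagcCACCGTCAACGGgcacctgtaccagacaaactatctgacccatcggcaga
Eng exon 7, chr2:32673250-32673424, plus strand: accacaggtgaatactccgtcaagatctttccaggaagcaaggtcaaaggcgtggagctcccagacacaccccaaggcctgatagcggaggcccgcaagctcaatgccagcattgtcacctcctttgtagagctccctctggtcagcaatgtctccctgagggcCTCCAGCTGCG
Eng exon 12, chr2:32678891-32679142, plus strand: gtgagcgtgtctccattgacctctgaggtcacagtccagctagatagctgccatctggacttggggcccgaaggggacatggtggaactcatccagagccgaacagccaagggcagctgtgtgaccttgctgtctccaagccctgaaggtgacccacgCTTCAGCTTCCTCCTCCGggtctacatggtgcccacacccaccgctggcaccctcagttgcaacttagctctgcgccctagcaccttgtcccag

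The first exons of Eng and Flt1 also had peaks, and their coding parts follow with the start codon in capitals.
Eng exon 1, chr2:32646958-32647024, plus strand: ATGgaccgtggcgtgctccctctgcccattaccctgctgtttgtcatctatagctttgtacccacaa
Flt1 exon 1, chr5:147725671-147725734, minus strand: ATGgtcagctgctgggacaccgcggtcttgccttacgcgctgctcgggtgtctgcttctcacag

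The longest CNN stretch held 4 cytidines in Flt1 exon 11, 4 in Flt1 exon 5, 4 in Eng exon 7 and 6 in Eng exon 12. Stretches of that length were common, since among all peak regions within 10% of the same length 48.3% had one at least as long as that of Flt1 exon 11 and 38.2% one at least as long as that of Eng exon 12. Read on the opposite strand the shares were 47.8% and 34.4%. For Flt1 exon 5 and Eng exon 7 the shares were 67.2% and 71.3% on the sense strand, against 60.4% and 62.3% on the opposite strand. These matches describe the letters and locate no acetylated base, since a peak is known only to its exon. Flt1 exon 11 had the lowest cytidine content of the vascular regions, 20.9%, while Eng exon 1 had the highest, 39.5%. The median was 32.6% over the 14 vascular regions tested and 29.6% over all 21 vascular regions, against 29.6% over all 10027 regions tested.

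Enrichment is given as fold enrichment (FE), the deposited ratio of captured signal to input for a peak. The FE of an mRNA is the sum over its peaks, and 0 stands for a mouse without a listed peak. The tables held between 7434 and 8375 peaks in WT mice and between 8459 and 10234 in 5×FAD mice. The median FE of a peak lay between 6.88 and 7.63 in 5 of the mice and at 13.1 in 5×FAD mouse 3, whose lowest FE was 4.06 against 2.03 to 2.29 in the other mice. The main results are therefore also given on one scale, where the FE of each mouse is multiplied by a factor that equalises the median over features with a peak in all 6 mice. As deposited, the median log2 difference between genotypes over all 5444 mRNAs tested was 0.54, and on one scale it was 0.02. Sequencing depth is unknown, as the tables hold no counts.

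The share of vascular genes with a peak was near that of all genes. A peak in any mouse was found for 7198 of 21924 protein-coding genes (32.8%), and for 4 of the 10 vascular genes. In WT mice 3 vascular genes had a peak (Flt1, Eng and Pdgfrb), and in 5×FAD mice the same 3 and Tie1. Kdr and Tek, the main receptors for VEGF and the angiopoietins, had none, nor had the adhesion molecule Pecam1, the clotting protein Vwf, the tight junction protein Cldn5 or the drug efflux pump Abcb1a. No peak listed under another gene lay within 2000 bp of those 6 loci. The 6 are not alike in structure, as Cldn5 has 1 exon and an mRNA of 1416 bases, whereas Vwf has 52 exons and 8834 bases. Genes with a peak had a median of 11 exons and 3544 bases, and Kdr, with 30 exons and 5924 bases, exceeded both. The cytidine content of the mRNA was 31.9% for Eng, 29.8% for Tie1, 28.4% for Pdgfrb and 25.1% for Flt1. It was 20.7% for Abcb1a, 22.4% for Tek, 23.5% for Kdr, 24.6% for Pecam1, 27.3% for Cldn5 and 27.9% for Vwf, with medians of 25.9% for all genes with a peak and 23.6% for those without. A missing peak says only that none was listed. An mRNA without ac4C, a signal too low to be listed, fewer vascular cells in the whole tissue and less RNA per cell cannot be told apart.

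Flt1 and Eng were among the mRNAs with the higher summed FE, and both had higher values in the 5×FAD mice as deposited. The sum grows with the number of listed peaks. The 4 Flt1 peaks of WT mouse 1 had an FE of 5.25 to 10.9, beside a median of 7.16 over all peaks of that mouse. The mean summed FE of Eng reached or exceeded that of 93.0% of genes with a peak in WT mice and of 95.9% in 5×FAD mice. For Flt1 these shares were 89.9% and 96.1%, and for Pdgfrb 63.7% and 65.1%.

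Flt1 (chr5:147561604-147726011, minus strand, 30 exons) had a summed FE of 30.65, 34.8 and 15.4 in WT mice 1, 2 and 3, and of 49.8, 50.65 and 104 in 5×FAD mice 1, 2 and 3. All 5×FAD mice lay above all WT mice, and 5×FAD mouse 3 stood far above the rest. The means were 26.95 ± 10.2 (SD, n = 3) in WT and 68.0 ± 30.8 (SD, n = 3) in 5×FAD, a ratio of 2.52, with a two-sided exact permutation p of 0.1, the smallest that 3 against 3 allows. Over all mRNAs tested, limma gave a log2 difference of 1.29 ± 0.62 (SE; adjusted p = 0.582). On one scale the values were 34.1, 40.8 and 21.7 in WT and 42.8, 46.0 and 67.8 in 5×FAD, still without overlap, and the log2 difference was 0.70 with an adjusted p of 1.00 by limma. Without 5×FAD mouse 3 the difference of the means fell from 41.1 to 23.3.

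Eng (chr2:32646595-32682669, plus strand, 15 exons) had a summed FE of 41.85, 35.0 and 24.6 in WT and of 53.0, 58.5 and 85.9 in 5×FAD. The genotypes did not overlap as deposited. The means were 33.8 ± 8.68 (SD, n = 3) and 65.8 ± 17.6 (SD, n = 3), a ratio of 1.95, with an exact permutation p of 0.1, and the limma log2 difference was 0.94 ± 0.54 (SE; adjusted p = 0.658). On one scale the ranges met, at 34.55 to 46.55 in WT and 45.55 to 56.2 in 5×FAD, and the log2 difference was 0.34. The exact permutation p on one scale was 0.2. Non-overlap with higher 5×FAD values was found for 14.7% of all mRNAs tested as deposited and for 4.94% on one scale.

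**Figure D1:**
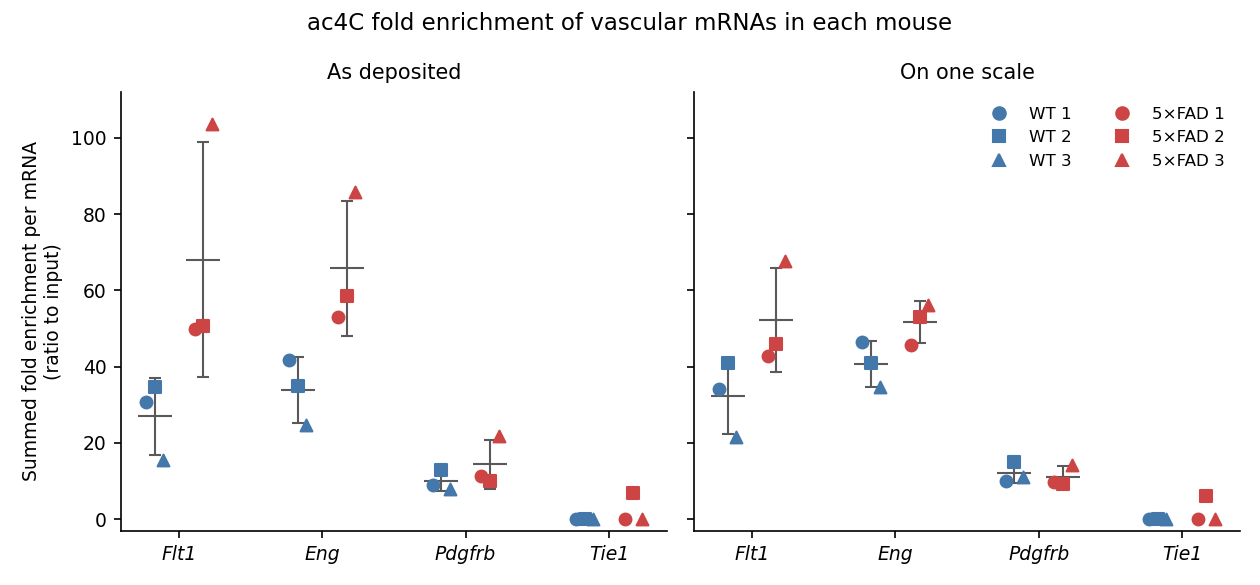
Summed ac4C fold enrichment (ratio to input, y axis) of Flt1, Eng, Pdgfrb and Tie1 in each mouse, as deposited (left) and on one scale (right); symbols mark mice 1 to 3 of each genotype, and bars give mean ± SD, n = 3, except for Tie1. Flt1 and Eng lie higher in all 5×FAD mice as deposited, 5×FAD mouse 3 highest at 104 and 85.9, and for Eng and Pdgfrb the genotypes overlap on one scale.

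Pdgfrb (chr18:61045150-61085061, plus strand), the pericyte receptor, differed less. Its summed FE was 9.08, 12.8 and 7.85 in WT and 11.4, 10.1 and 21.75 in 5×FAD, so that the genotypes overlapped. The means were 9.91 ± 2.58 (SD, n = 3) and 14.4 ± 6.38 (SD, n = 3), with an exact permutation p of 0.4, and limma gave a log2 difference of 0.45 ± 0.57 (SE; adjusted p = 0.820). On one scale the direction turned, to a log2 difference of -0.12. Without 5×FAD mouse 3 the log2 difference as deposited was 0.13, and the difference of the means was 0.842 in place of 4.51. Tie1 (chr4:118471191-118490061, minus strand), the orphan partner of Tek, was listed once, in 5×FAD mouse 2 at an FE of 6.80, and at 0 in the other mice. It had too few mice for the fit.

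None of the 3 vascular mRNAs tested passed an adjusted p of 0.05, and neither did any of the 5444 mRNAs (0%). Before adjustment, 274 mRNAs (5.03%) had a p under 0.05 with higher 5×FAD values and 33 (0.606%) with lower ones, with no vascular gene of the 10 among them. In the fit of the 3851 overlay mRNAs, those found in at least 2 mice of both genotypes, the unadjusted p was 0.0627 for Flt1 and 0.0959 for Eng, and 0 mRNAs passed the adjusted threshold (0%). Before adjustment, 92 (2.39%) had a p under 0.05 with a positive difference and 2 (0.0519%) with a negative one.

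The summed values of Flt1 and Eng were built differently along the mRNA. The peaks of the 4 genes merged into 21 regions, 11 in Flt1, 7 in Eng, 2 in Pdgfrb and 1 in Tie1. Of these, 14 were found in at least 2 mice of a genotype and were tested, 5 had a peak in all 6 mice (4 of Eng and 1 of Pdgfrb), 9 were listed in 5×FAD mice only and 0 in WT mice only. Of all 20038 merged regions, 30.5% were listed in 5×FAD mice only and 12.8% in WT mice only. WT mice 1, 2 and 3 had 10, 10 and 7 peaks in these genes, and 5×FAD mice 1, 2 and 3 had 12, 16 and 14. Per 10000 listed peaks the WT values were 11.9, 12.65 and 9.42 and the 5×FAD values 11.7, 15.9 and 16.55, so that the range of one genotype overlapped that of the other.

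**Figure D2:**
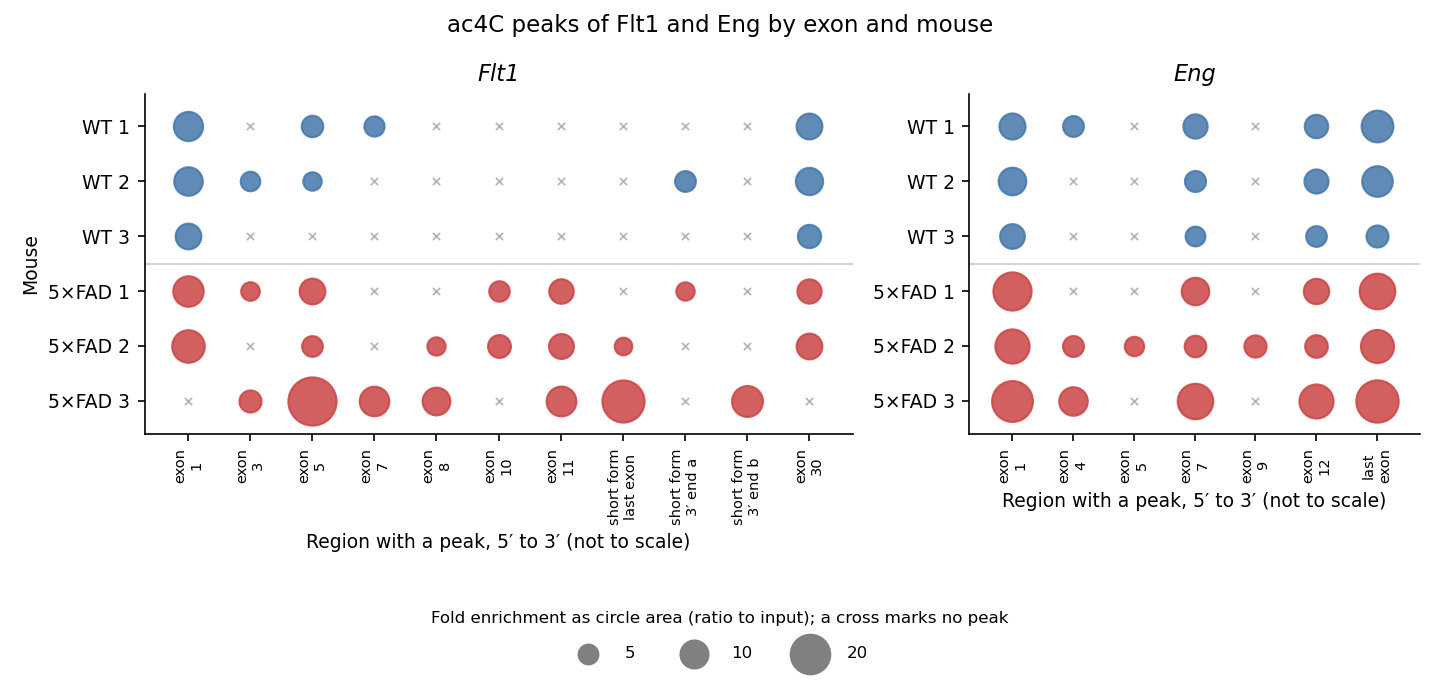
ac4C peaks of Flt1 (left) and Eng (right) by region along the mRNA from 5′ to 3′ (x axis) and by mouse (y axis). The area of a circle gives the fold enrichment, blue for WT and red for 5×FAD, and a cross marks a mouse without a listed peak; Eng repeats 4 regions in all mice, while the inner regions of Flt1 are mostly filled in the 5×FAD rows.

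Eng had 4 regions with a peak in every mouse. Its first exon (chr2:32646595-32647024), which holds the start codon, had an FE of 8.74, 9.81 and 7.85 in WT and 18.7, 15.0 and 21.4 in 5×FAD. These values did not overlap, nor did they on one scale (9.30 to 10.9 in WT and 13.2 to 16.3 in 5×FAD), and the limma log2 difference was 0.97 ± 0.52 (SE) as deposited with an adjusted p of 0.505. The last exon (chr2:32681196-32682261), with the stop codon, had the highest FE of the gene in WT mice 1 and 2, with 12.9, 12.02 and 6.24 in WT and 16.3, 14.1 and 23.0 in 5×FAD. The genotypes overlapped there on one scale. Exon 7 had 7.56, 5.70 and 5.02 in WT and 9.72, 6.00 and 16.2 in 5×FAD. Exon 12 had 7.06, 7.44 and 5.49 in WT and 8.26, 6.57 and 14.9 in 5×FAD, and its log2 difference turned from 0.45 to -0.05 on one scale. Both exons had overlapping genotypes, and without 5×FAD mouse 3 their log2 differences were 0.30 and 0.14, against 0.63 and 0.45 with it. Exon 4 was listed in WT mouse 1 and in 5×FAD mice 2 and 3, and exons 5 and 9 only in 5×FAD mouse 2, at 4.84 and 6.33. The exons are numbered along transcript ENSMUST00000113272.7, in which exon 14 is the last.

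Flt1 kept peaks at both ends of its mRNA in both genotypes, and most of the listed peaks between them came from 5×FAD mice. Exon 1 (chr5:147725671-147726011), with the start codon, had an FE of 10.9, 10.4 and 8.48 in WT and of 11.9 and 13.6 in 5×FAD mice 1 and 2. Exon 30 (chr5:147563655-147564406), with the stop codon of the membrane-bound receptor, had 8.57, 9.54 and 6.94 in WT and 7.55 and 8.52 in 5×FAD mice 1 and 2. Both were listed at 0 in 5×FAD mouse 3. The log2 differences were -0.93 ± 1.14 (SE) for exon 1 and -1.10 ± 1.00 (SE) for exon 30, or -1.22 and -1.39 on one scale. Without 5×FAD mouse 3 that of exon 1 turned to 0.33 and that of exon 30 shrank to -0.0417.

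Between them, exons 3 to 11 and the short form's last exon formed 9 regions. Their FE summed to 11.2, 14.8 and 0 in WT and to 30.4, 28.5 and 104 in 5×FAD, from 2, 3 and 0 peaks in WT and 5, 5 and 7 in 5×FAD. This division of the mRNA was drawn after its values were seen and carries no test. Exon 5 was the strongest inner exon, listed at 5.91, 4.37 and 0 in WT against 8.51, 5.51 and 29.8 in 5×FAD, so that the genotypes overlapped and without 5×FAD mouse 3 the log2 difference went from 1.89 to 1.24, and without WT mouse 3 to 1.02. Exons 8 and 10 were listed only in 5×FAD mice, exon 8 at 4.29 and 9.86 in mice 2 and 3, and exon 10 at 5.38 and 6.73 in mice 1 and 2. Exon 3 was listed in WT mouse 2 and 5×FAD mice 1 and 3, and exon 7 in WT mouse 1 and 5×FAD mouse 3. No region fell in the exons between 13 and 30.

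Flt1 exon 11 was the only vascular region listed in all 3 5×FAD mice and absent from the tables of all 3 WT mice. Its FE was 7.71, 7.98 and 11.4 in 5×FAD mice 1, 2 and 3, and on one scale 6.73, 7.52 and 7.04. Over the 10027 regions tested, 238 (2.37%) had this pattern, and 47 (0.469%) had the opposite one. The limma log2 difference was 3.31 ± 0.52 (SE), with an unadjusted p of 0.000654 and an adjusted p of 0.0863. The region entered the test through the 5×FAD mice alone. Its WT values are unlisted peaks set to 0, with an SD of 0, so these p-values rest on no measured WT enrichment. The adjusted p was 0.0444 on one scale, and with the mouse number as a block it was 0.143. The 3 peaks stood close to the threshold of the tables, with scores of 56.8, 51.7 and 51.4 against a lowest listed score of 40, a score being the log10 of the p that the caller gave, times -10. None was left at a score of at least 60, a limit added after these scores were seen, and the region could not be tested among equal numbers of top peaks.

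The short Flt1 transcript ENSMUST00000110529.5, of 13 exons, encodes the secreted form, and its last exon (chr5:147635159-147639533) runs on into the intron after exon 13 of the long form. The part of this exon with the stop codon was listed at 4.01 and 22.8 in 5×FAD mice 2 and 3 and at 0 in the other mice, with a log2 difference of 2.30 ± 1.18 (SE) and an adjusted p of 0.482 by limma. That difference was 2.06 on one scale and 1.16 as deposited without 5×FAD mouse 3. The region entered the test through the 5×FAD mice alone, and its WT values are unlisted peaks set to 0, with an SD of 0. Further 3′ in the same exon, 1 region was listed at 5.55 in WT mouse 2 and 4.34 in 5×FAD mouse 1, and another at 12.3 in 5×FAD mouse 3. The tables do not say which reads came from the short form, since its last exon begins with sequence shared by both.

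Pdgfrb had its recurring peak in exon 22 of the 23 exons of transcript ENSMUST00000025522.10, a coding exon. The FE there was 9.08, 12.8 and 7.85 in WT and 11.4, 10.1 and 13.6 in 5×FAD, with overlapping genotypes and a log2 difference of 0.23 ± 0.54 (SE), or -0.27 on one scale. The last exon was listed only in 5×FAD mouse 3, at 8.18. The single Tie1 peak lay over exon 12 of the 22-exon transcript ENSMUST00000184261.7, which holds an early stop codon in that exon.

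**Figure D3:**
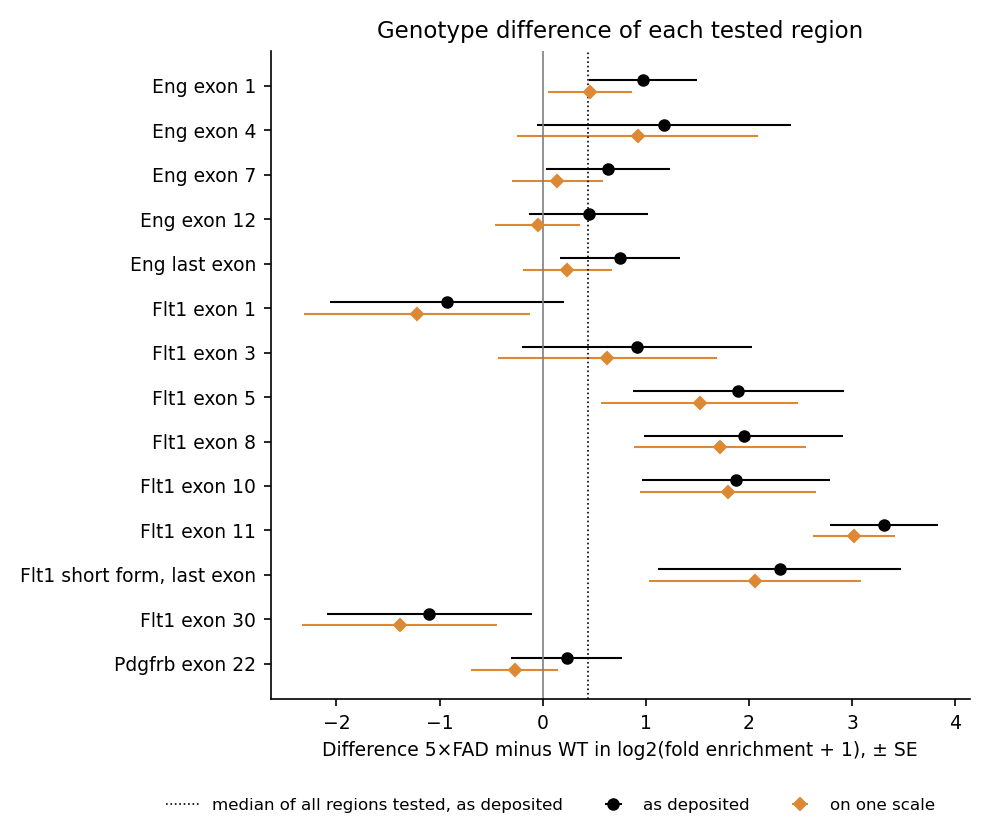
Difference between genotypes (5×FAD minus WT, in log2 of fold enrichment plus 1, x axis) of the 14 vascular regions tested, with standard errors, as deposited (circles) and on one scale (diamonds). The dotted line is the median of all 10027 regions as deposited, 0.44; Flt1 exon 11 lies farthest to the right at 3.31, and Flt1 exons 1 and 30 lie left of 0.

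Of the 14 vascular regions tested, 12 had a positive and 2 a negative log2 difference, with a median of 0.94, against a median of 0.44 and a positive sign in 72.4% of all regions tested. On one scale 10 were positive and 4 negative, with a median of 0.54, against 0.04 and 52.8% of all regions. Eng exon 4, Flt1 exons 3, 8, 10 and 11 and the short form's last exon entered the test through the 5×FAD mice alone. All of these had positive differences on both scales, a sign that this way of entry favours. No vascular region entered through WT mice alone, so the counts and medians are no independent sign of a vascular shift. In 3 of the 14 (Eng exon 1, the last exon of Eng and Flt1 exon 11) every 5×FAD mouse exceeded every WT mouse, against 13.9% of all regions. On one scale this held for 2 (Eng exon 1 and Flt1 exon 11), against 5.04%, and in Flt1 exon 30 every 5×FAD mouse then lay below every WT mouse, against 3.54%. No region of the 10027 passed an adjusted p of 0.05 as deposited (0%), and before adjustment 458 (4.57%) had a p under 0.05 with a positive difference and 54 (0.539%) with a negative one. In contrast, 210 (2.09%) did on one scale, Flt1 exon 11 among them.

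The surroundings of these genes were described through 10 lists of vascular genes, 161 genes besides the 10 above, of which 82 had a peak in some mouse and 69 were tested. None passed the adjusted threshold. Of the 69, 65 had a positive log2 difference and 4 a negative one, against 75.0% positive among all mRNAs tested, and the median was 0.96 against 0.54. On one scale 50 were positive and 19 negative, against 51.5%, with a median of 0.46 against 0.02. In 21 of the 69 (30.4%) every 5×FAD mouse exceeded every WT mouse as deposited, against 14.7% of all mRNAs, and on one scale in 9 of them, against 4.94%. Of the genes named below, Ptprb, Cd34, Mfsd2a, Insr, Fli1, Hes1, Vtn and Nid2 had a peak in fewer than 2 WT mice. They entered the test through the 5×FAD mice alone, which favours a positive sign, and all were positive on both scales. How many of the 69 entered in this way was not counted. The lists were chosen with results of these data known.

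Around Flt1 and Kdr, 4 of 12 VEGF genes were tested, 4 with positive differences as deposited and 2 on one scale. Vegfa itself and the receptor Flt4 had no peak. The lead was taken by Plxnd1, a semaphorin receptor of endothelium, at 34.1, 26.7 and 9.73 in WT against 58.6, 41.0 and 47.0 in 5×FAD, with no overlap as deposited, and by the adaptor Shb, at 7.06, 7.12 and 5.02 against 13.6, 10.6 and 9.62. Around Tek and Tie1, only the phosphatase Ptprb and the transcription factor Foxo1 were tested of 7 genes, and the angiopoietins themselves had no peak. Ptprb was listed in WT mouse 2 and in 5×FAD mice 1 and 3, and Foxo1 in 2 mice of each genotype.

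Around Eng, 11 of 19 genes of BMP and TGF-beta signalling were tested, all with positive differences as deposited and 8 on one scale, while the receptor Acvrl1 and the ligands Gdf2 and Bmp10 had no peak. The ligand Tgfb1 had a summed FE of 6.39, 6.33 and 3.61 in WT and 29.9, 27.7 and 28.0 in 5×FAD, a limma log2 difference of 2.23 ± 0.52 (SE) with an adjusted p of 0.222, or 1.68 on one scale. Its receptor Tgfbr2 had 11.3, 7.12 and 4.55 in WT and 35.3, 33.0 and 21.9 in 5×FAD, with an adjusted p of 0.580. Both genes kept the genotypes apart on one scale.

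Around Pecam1 and Cldn5, 5 of 22 junction and adhesion genes were tested, all positive on both scales. The surface glycoprotein Cd34 was listed in no WT mouse and at 5.14, 6.33 and 7.57 in the 5×FAD mice, with a log2 difference of 2.86 ± 0.50 (SE) and an adjusted p of 0.0975, or 2.59 and 0.0795 on one scale. Cd34 entered the test through the 5×FAD mice alone. Its WT values are unlisted peaks set to 0, without spread, so its p-values rest on no measured WT enrichment. Without 5×FAD mouse 3 the adjusted p of Cd34 was 0.0377, in a fit that passed 233 of 5444 mRNAs. The tricellular junction protein Lsr had 6.94, 5.70 and 5.02 in WT and 19.5, 6.90 and 23.0 in 5×FAD, overlapping. Around Abcb1a, 9 of 20 genes of barrier transport were tested, 8 positive as deposited and 6 on one scale. The negative one as deposited was Lrp1, at a log2 difference of -0.23, or -0.81 on one scale. The lipid transporter Mfsd2a was listed at 5.71, 0 and 0 in WT against 8.51, 3.52 and 7.05 in 5×FAD, and the insulin receptor Insr at 0, 18.5 and 0 against 11.2, 18.4 and 10.0. Around Vwf, 4 of 15 genes of haemostasis and shear response were tested, all positive on both scales, led by the plasminogen activator Plat (5.37, 6.08 and 0 in WT and 8.38, 12.3 and 30.5 in 5×FAD) and the nitric oxide synthase Nos3 (4.37, 0 and 3.61 against 10.9, 6.10 and 8.61).

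Among endothelial transcription factors 9 of 16 were tested, all positive as deposited and 7 on one scale. Fli1, an ETS factor, was listed at 0, 3.48 and 0 in WT against 14.6, 20.4 and 13.05 in 5×FAD. Its log2 difference was 3.34 ± 0.76 (SE), or 2.98 on one scale, with an adjusted p of 0.209 by limma as deposited. Fli1 entered the test through the 5×FAD mice alone, and its values in WT mice 1 and 3 are unlisted peaks set to 0. The Wnt effector Lef1 was listed at 0, 4.27 and 6.09 in WT against 43.0, 22.3 and 25.3 in 5×FAD. Of 12 Notch genes 7 were tested, 6 positive as deposited and 5 on one scale, with Notch3, the receptor of mural cells, at 4.10, 12.02 and 0 in WT against 28.1, 28.15 and 27.2 in 5×FAD. Its target Hes1 was listed only in 5×FAD mice 1 and 2, with an adjusted p of 0.582 by limma. Without 5×FAD mouse 3, where Hes1 was at 0, the adjusted p was 0.0377, in a fit that passed 233 of 5444 mRNAs. The small p there follows from leaving out the 0 and from WT values without spread. Jag2 of the same list went the other way, with a log2 difference of -1.35, or -1.74 on one scale. Around Pdgfrb, 9 of 22 genes of pericytes, smooth muscle and PDGF signalling were tested, 8 positive as deposited and 7 on one scale, and the pericyte markers Rgs5, Kcnj8 and Abcc9 had no peak. The smooth muscle myosin Myh11 had 3.19, 4.11 and 0 in WT and 5.59, 4.93 and 8.35 in 5×FAD, and Vtn was listed in WT mouse 2 and 5×FAD mice 2 and 3. Acta2 of the same list went the other way, with a log2 difference of -0.92, or -1.28 on one scale. Of 16 basement membrane genes 9 were tested, all positive as deposited and 5 on one scale. Hspg2, the proteoglycan perlecan, had 20.5, 21.05 and 10.98 in WT and 59.8, 46.2 and 61.9 in 5×FAD (log2 difference 1.66 ± 0.55 SE, adjusted p of 0.582, 1.07 on one scale), whereas Nid2 was listed only in 5×FAD mice 1 and 2, with the same adjusted p of 0.582 and 0.0377 as Hes1 with and without 5×FAD mouse 3.

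**Figure D4:**
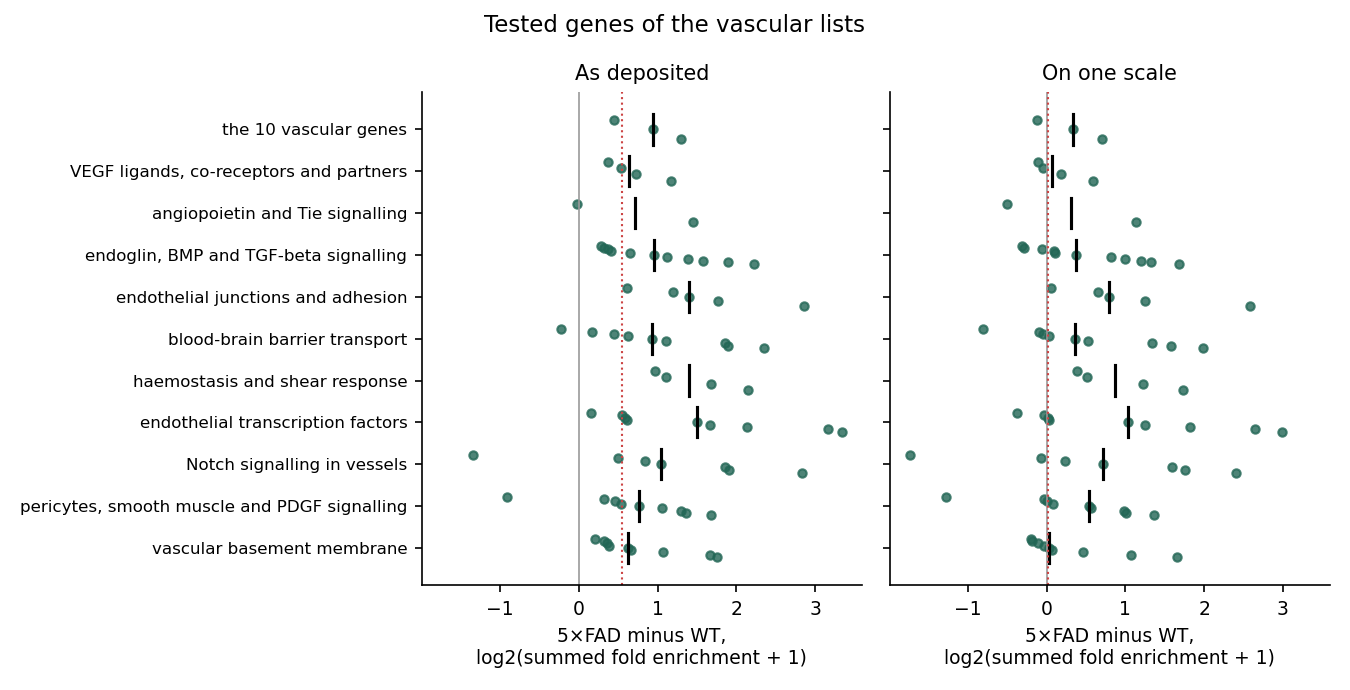
Genotype differences (5×FAD minus WT, in log2 of summed fold enrichment plus 1, x axis) of the tested genes in the 10 vascular lists and of the vascular genes themselves (y axis), as deposited (left) and on one scale (right); each point is a gene, a black bar the median of a list and the dotted red line the median of all mRNAs tested, 0.54 and 0.02. The points move to the left on one scale, and most lists keep a median above the dotted line.

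Markers of other cell types were summed in the same way, as deposited unless stated. The summed FE of 15 microglial markers, 11 of them with a peak, ran from 24.9 to 49.6 in WT and from 129 to 214 in 5×FAD, with Tmem119, C1qa, Cd68, Cst7 and Itgax at 0 in all WT mice and Aif1, C1qc, Trem2 and Tyrobp at 0 in all mice. On one scale the ranges were 34.9 to 58.2 and 111 to 140. C1qb went the other way, with a log2 difference of -1.75. For 10 neuronal markers, 9 with a peak, the ranges were 95.9 to 127 and 235 to 438, or 126 to 142 and 202 to 287 on one scale. For 10 astrocyte markers, 7 with a peak, they were 72.8 to 133 and 135 to 210, and for 10 oligodendrocyte markers, 6 with a peak, 167 to 239 and 252 to 297. On one scale the genotypes overlapped for both, at 93.4 to 148 and 94.1 to 181 for astrocytes and at 213 to 280 and 165 to 269 for oligodendrocytes. Most of the oligodendrocyte sum came from a single gene, Myrf, at 149 to 175 in WT and 228 to 243 in 5×FAD as deposited. The oligodendrocyte markers had a median log2 difference of 0.36 as deposited, below the 0.54 of all mRNAs, and of -0.05 on one scale, and Mbp was at -1.66 as deposited. Choroid plexus markers, 5 of 8 with a peak, ran from 15.1 to 58.9 and from 13.2 to 85.8, and fibroblast markers, 2 of 7 with a peak, from 6.1 to 18.6 and from 11.5 to 27.3, with overlap in both. Of 6 erythrocyte markers 1 had a peak, in WT mouse 3, and the globin genes were at 0. The part of these cell types in the vascular values was not tested.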

How the data were processed

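The 18 libraries were an anti-ac4C, an input and an IgG library of each of 6 mice, grouped by the labels. Per the labels and methods, the authors used FastQC for read quality, cutadapt 1.9.3 for trimming and HISAT2 2.04 for alignment to mm10, and ran MACS on each mouse against its input, keeping peaks on coding-gene exons that did not overlap IgG peaks. The deposited fold enrichment is a ratio, and whether IgG was subtracted in it is unknown. The deposited score is the log10 of the p-value given by the caller, times -10. The deposited FDR, in percent, was under 5 for at most 2 peaks per mouse and was not used as a filter. Its median was 51.75, 61.6 and 68.1 in WT mice 1, 2 and 3. In 5×FAD mice 1, 2 and 3 it was 37.4, 42.7 and 100. The lowest FDR of a peak in the vascular genes was 27.0, and those of 5×FAD mouse 3 stood at 96.7 or 100. The paper describes an FDR cutoff of 0.05 at peak calling, which nearly all listed peaks exceed. The reason for this is unknown.

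Tables were assigned to mice by sheet name. Peaks overlapping by 1 bp on one strand were merged into regions, with the highest peak per mouse. mRNAs or regions found in 2 or 3 mice of 1 genotype or both were tested with limma 3.58.1 (R 4.3.3) on log2(FE + 1), adjusted by Benjamini-Hochberg over all of them at 0.05, and single sums with exact permutation tests. Simulated data of 2028 mRNAs with a peak in all mice, with changes of 4 and 2 log2 units in 100 mRNAs each, gave 92 and 57 calls beside 9 false ones. The simulated noise was independent, with no unlisted peaks, no shift of a whole mouse and no link between same-numbered mice. These counts therefore do not give the power or false calls of the reported fits. Same-numbered mice deviated together (correlations of 0.54, 0.53 and 0.30 over 2028 mRNAs with a peak in all mice), a pairing seen in the data and not explained by the labels, so the number served as a block in an alternative. Exons came from GENCODE vM21. Named genes were the 10 vascular genes and, of each list, the 2 with the smallest limma p, with single genes at 0 or with a negative difference named beside them. The genes and lists were chosen with earlier results of these data known. 1 microglial marker and 1 transgene are not reported here.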

Additional observations from a re-analysis of the deposited data

How the results depend on the processing

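The number of mRNAs past the adjusted threshold was 0 in the reported fit, 109 with a pseudocount of 0.1 and 83 with the highest peak in place of the sum, and it ran from 0 to 233 with 1 mouse left out, the 233 being without 5×FAD mouse 3. The number of regions was 0 as reported, 210 on one scale and 284 with a pseudocount of 0.1, and it ran from 0 to 829 with 1 mouse left out, the 829 again without 5×FAD mouse 3. It stayed at 0 for overlay mRNAs in every alternative run. With the mouse number as a replicate block, 0 mRNAs and 0 regions passed, and the adjusted p was 0.512 for Flt1, 0.541 for Eng and 0.646 for Pdgfrb. The exact permutation p of the summed FE with this block was 0.25 for Flt1 and for Eng, the smallest that these pairs allow.

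Pdgfrb changed sign with the scale. Its log2 difference was -0.12 on one scale and -0.14 after quantile normalization, its difference in summed FE -0.981 and -1.17, and that of its exon 22 -0.27 and -0.24. Eng exon 12 gave -0.0498 and -0.0423 under the same settings. With 1 mouse left out, Flt1 exon 1 ran from -1.60 to 0.33 and Foxo1 from -1.76 to 1.68. Flt1 exon 11 passed the threshold on one scale (adjusted p of 0.0444), with a pseudocount of 0.1 (0.0122) and without 5×FAD mouse 3 (0.0101), and its adjusted p ran up to 0.546 with no filter on the number of mice. Without 5×FAD mouse 3, Flt1 exon 10 (0.0101), Cd34, Hes1 and Nid2 (each 0.0377) also passed, and Cd34 did so with a pseudocount of 0.1 (0.00623) and with the highest peak (0.0376). Flt1 exon 10, Hes1 and Nid2 were at 0 in the mouse left out, and these 3 and Cd34 were at 0 in every WT mouse. In other settings Cd34 was far from the threshold. Its adjusted p by limma was 0.636 at a score of at least 50, where its log2 difference fell from 2.86 to 1.83. It was 0.645 at a score of at least 60 and 0.831 after quantile normalization. Flt1 and Eng kept positive log2 differences in every alternative, 0.65 to 1.51 and 0.29 to 1.11, and passed in none. The cause of these changes was not tested. Of the 21 regions, 17 were left among equal numbers of top peaks, 20 at a score of at least 50 and 16 at a score of at least 60. Tie1 had no peak in any of these 3 settings, so that 3 of the 10 genes were left with a peak. The pseudocount does not enter the linear difference in summed FE. Depth is unknown, and 3 mice per genotype limit the precision.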

Other observations

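Fpgs, a gene on the minus strand next to Eng, had a peak over its stop codon exon 363 bp from the nearest Eng peak. It was listed at 6.39 and 6.01 in WT mice 1 and 2, at 15.1 and 16.7 in 5×FAD mice 1 and 2, and at 0 in WT mouse 3 and 5×FAD mouse 3.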
